A study of Mus musculus with 8 samples.

Results

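The BCL2 family, the death receptor Fas and the initiator caspase Casp8 were examined in mouse hepatic stellate cells, the retinoid-storing pericytes of the liver sinusoid. The set was defined by name as 9 genes, and a gene was measured by the probe set that the platform annotation pairs with its symbol alone. The 8 genes Bcl2, Bcl2l1, Mcl1, Bak1, Bcl2l11, Bbc3, Fas and Casp8 each had 1 such probe set, out of 19938 genes in all, and Bax was not analysed here. Cells of male Balb/c mice were compared on 4 arrays of untreated animals (quiescent) and 4 arrays of animals given 4 injections of carbon tetrachloride (CCl4) and then left for 45 days (reverted). CCl4 is a hepatotoxin used to induce liver fibrosis, and it was given at 0.5 µl per g body weight with 2 injections per week. The mice of both groups are described as 18 weeks old in a general statement of the labels, while a statement on the reverted group gives 16 weeks. Stellate cells of both groups came from density centrifugation and a sort on retinoid autofluorescence and were lysed directly afterwards, so the gate takes only cells that hold retinoid. No label says whether an array holds 1 mouse or a pool, so the p-values rest on array-to-array spread that may be technical.

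Apoptosis by the mitochondrial route is set by the balance within the BCL2 family. The protectors BCL2, BCL-XL (gene Bcl2l1) and MCL1 hold back the effectors BAX and BAK, which otherwise permeabilise the outer mitochondrial membrane, and BH3-only proteins such as BIM (Bcl2l11) and PUMA (Bbc3) antagonise the protectors. The receptor route starts at receptors such as FAS, which recruit FADD and activate caspase-8. In the liver, loss of activated stellate cells by apoptosis and their return to a less active state are both known routes by which fibrosis resolves, and the series concerns the latter.

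The deposited values are log2 values made with RMA, and the medians of the 8 arrays lay between 7.66 and 7.74. Stellate markers were strong in both groups, with Lrat at 14.05 and 14.04 and Des at 12.81 and 12.79 in quiescent and reverted cells. The mean of the 15 measured stellate markers lay between 13.25 and 13.29 in quiescent and between 13.17 and 13.20 in reverted arrays, without overlap. Of the 15, 0 had the higher mean in reverted cells, against 46.4% of all genes. Reverted arrays lay wholly below quiescent arrays for 3 of them, against 4.09% of all genes, and Gfap among them fell (limma adjusted p = 0.0182). Hepatocyte markers had a higher mean in reverted cells for 14 of 14 genes, with a median log2 change of 0.42. Their list means were 7.96 to 8.98 in quiescent and 8.69 to 9.17 in reverted arrays. Of the 14 genes 0 were called, against 0.712% of all genes. At an unadjusted p under 0.05 in limma, 7 of the 14 were higher, against 8.56% of all genes. Proliferation markers averaged 9.16 in reverted array 1, against 7.56 to 8.15 in quiescent and 7.83 to 7.98 in the other reverted arrays. In the list of mesothelial and portal fibroblast markers, 3 of 12 genes had the higher mean after reversion and 9 the lower, and Wt1 (log2 change 1.39, limma adjusted p = 0.00801) and Dpt (1.69, adjusted p = 0.0174) rose. That list's mean ran from 7.78 to 7.86 in quiescent and from 7.97 to 8.20 in reverted arrays without overlap, while the mesothelial markers Msln and Upk3b differed by -0.10 and -0.09. Endothelial list means ran from 8.02 to 8.37 and from 8.16 to 8.68, and macrophage list means from 6.82 to 6.93 and from 6.85 to 6.96. In bulk samples of this kind, fewer cells of a type and less RNA per cell cannot be told apart. Beyond the hepatocyte covariate given below, the part of these cell types and of proliferation in the results was not tested. Along the first principal component (35.3% of the variance), quiescent array 4 lay at -0.21 between the other quiescent arrays (-13.98 to -8.79) and the reverted arrays (6.07 to 11.51).

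None of the cell death genes defined above passed the test after 45 days of rest. In limma, 0 of the 8 genes reached an adjusted p under 0.05, against 0.712% of all 19938 genes (0.527% up and 0.186% down). At an unadjusted p under 0.05 there were 3, with Bcl2l1 and Bak1 higher and Bcl2 lower in reverted cells. Such an unadjusted p was found in 16.0% of all genes. The widest difference was that of Bcl2l1, at a log2 change (reverted minus quiescent) of 0.63, and the other 7 lay between -0.23 and 0.17. For these 7 genes the whole 95% interval of the difference lay within 1.5-fold in either direction on the RMA scale, as it did for 97% of all genes. The median log2 change of the 8 genes was 0.11, against -0.01 over all genes, and 6 of them (75.0%) had the higher mean in reverted cells, against 46.4% of all genes. With the lower 50% of genes by level left out, the median over the genes that remained was 0.034.

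**Figure D1:**
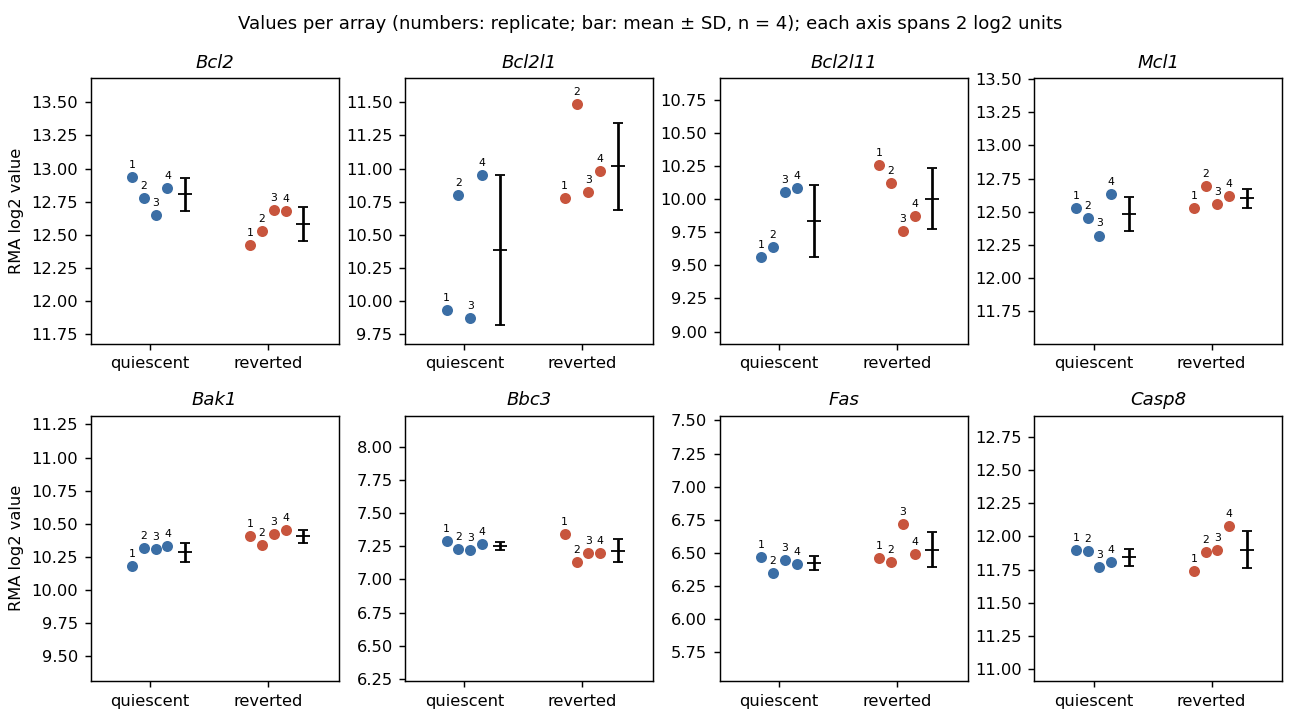
RMA log2 value (y axis, 2 log2 units in every panel) of the 8 measured genes on the 4 quiescent (blue) and 4 reverted (red) arrays, with replicate numbers beside the points and the mean ± SD as bars. Quiescent arrays 1 and 3 lie apart from the other arrays for Bcl2l1 (9.93 and 9.87), and only Bak1 has all reverted points above all quiescent points.

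Among the protectors, Bcl2, the founding member of the family, stood at 12.94, 12.78, 12.65 and 12.85 in quiescent arrays 1 to 4. In reverted arrays 1 to 4 it stood at 12.42, 12.53, 12.69 and 12.68. Quiescent array 3 lay below reverted arrays 3 and 4, so the groups overlapped by that 1 array. The means were 12.81 ± 0.12 and 12.58 ± 0.13 (SD, n = 4 each), a log2 change of -0.23 (SE 0.08, 95% interval -0.40 to -0.05). This is 0.855-fold, with a limma unadjusted p of 0.0176 and an adjusted p of 0.224. Adjusted for the mean of the hepatocyte markers, the log2 change of Bcl2 was -0.14 (limma adjusted p = 0.41).

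Bcl2l1, whose main product BCL-XL protects mitochondria, varied most between arrays. It stood at 9.93, 10.80, 9.87 and 10.95 in quiescent arrays 1 to 4 and at 10.78, 11.49, 10.82 and 10.98 in reverted arrays 1 to 4. Quiescent arrays 2 and 4 thus lay within the reverted range, while quiescent arrays 1 and 3 lay well below every reverted array. The range within the quiescent group, 1.08, was wider than the difference between the group means, 10.39 ± 0.57 and 11.02 ± 0.32 (SD, n = 4 each). The log2 change was 0.63 (SE 0.26, 95% interval 0.03 to 1.22), or 1.55-fold with an interval of 1.02 to 2.34 (limma unadjusted p = 0.041, adjusted p = 0.294). A gene-level value of this kind gives no separate reading of the long, protective and the short, death-promoting splice form.

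Mcl1, a protector with a short-lived protein, stood at 12.53, 12.45, 12.32 and 12.63 in quiescent and at 12.53, 12.69, 12.56 and 12.62 in reverted arrays 1 to 4. The groups overlapped, and the lowest values were again those of quiescent arrays, here 2 and 3. The log2 change was 0.12 (95% interval -0.04 to 0.27, limma adjusted p = 0.419). It was 0.22 with the hepatocyte marker covariate (adjusted p = 0.141) and 0.06 without quiescent array 3 (adjusted p = 0.622). Of the 6 measured genes in the whole list of protectors, 0 were called, 4 had their higher mean in reverted and 2 in quiescent cells, and the median difference was 0.04. The BCL-W gene Bcl2l2 differed by -0.02 (95% interval -0.13 to 0.08, limma adjusted p in the alternatives between 0.403 and 0.971).

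Bcl2 and Bcl2l1 encode like-acting protectors and had differences of opposite sign, neither of them called. For both, the RefSeq sequences (GRCm38.p6) of the 250 bases before their starts are shown 5′ to 3′ on the gene's strand. A link between these sequences and the differences was not tested. Capitals mark matches on either strand to 8 searched motifs. These were the GC box (GGGCGG), the CCAAT box (CCAAT), the TATA box (TATAAA), the STAT site (TTCNNNGAA), the cAMP response element (TGACGTCA), the FOXO site (GTAAACA), the NF-kB site and the p53 decamer. The Bcl2 window lies on the minus strand at chr1:106714291-106714540. The Bcl2l1 window, also on the minus strand, lies at chr2:152831729-152831978 and is the most upstream of the 3 starts that the table lists for this gene. All 3 Bcl2l1 windows lie inside the span annotated for the gene (chr2:152758732-152833803). The Bcl2 window instead directly adjoins the 5′ end of its gene at 106714290, so the 2 windows shown are not alike in position.
Bcl2: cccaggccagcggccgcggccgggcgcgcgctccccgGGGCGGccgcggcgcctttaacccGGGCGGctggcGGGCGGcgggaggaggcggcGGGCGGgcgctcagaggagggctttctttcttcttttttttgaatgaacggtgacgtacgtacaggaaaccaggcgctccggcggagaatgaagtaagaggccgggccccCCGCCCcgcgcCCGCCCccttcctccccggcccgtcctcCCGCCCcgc
Bcl2l1: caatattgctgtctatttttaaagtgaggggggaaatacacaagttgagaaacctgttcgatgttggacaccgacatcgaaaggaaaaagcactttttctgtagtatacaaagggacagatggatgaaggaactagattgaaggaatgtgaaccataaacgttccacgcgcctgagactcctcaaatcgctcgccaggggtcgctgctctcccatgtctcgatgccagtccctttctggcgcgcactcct
The Bcl2 window held 7 GC boxes and no other searched motif, and its GC content was 74.8%, against a median of 52.4% over all 32851 windows. A GC box occurred in 32.7% of all windows. The Bcl2l1 window (47.6% GC) held none of the searched letters, which describes these 250 bases only, and the second listed Bcl2l1 window held an NF-kB site, as did 3.9% of all windows, while the third held none of them. The sequence is that of the C57BL/6J reference and not of the Balb/c mice used here.

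Of the effectors, Bak1 encodes BAK, which sits in the outer mitochondrial membrane. It stood at 10.18, 10.32, 10.31 and 10.33 in quiescent and at 10.41, 10.34, 10.42 and 10.45 in reverted arrays 1 to 4. Each reverted array lay above each quiescent array, though reverted array 2 exceeded quiescent array 4 by little. Bak1 was the only one of the 8 genes whose groups did not overlap, a separation found in 8.73% of all genes. The means were 10.29 ± 0.07 and 10.40 ± 0.04 (SD, n = 4 each), a log2 change of 0.12 (95% interval 0.01 to 0.22), or 1.08-fold (limma adjusted p = 0.271). The change was 0.07 after quantile normalization (limma adjusted p = 0.496). Bok, the third effector of this type and not one of the 8 genes, differed by -0.14 (95% interval -0.28 to -0.01, limma adjusted p = 0.299).

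The BH3-only gene Bcl2l11 encodes BIM, which binds all of the protectors. It stood at 9.56, 9.64, 10.05 and 10.08 in quiescent and at 10.26, 10.12, 9.76 and 9.87 in reverted arrays 1 to 4. Both groups held a high and a low pair of arrays, and they overlapped widely. The log2 change was 0.17 (SE 0.15, 95% interval -0.16 to 0.50, limma adjusted p = 0.57), and with 1 array left out it ran from 0.08 to 0.25. Bbc3, the gene of PUMA and a classical p53 target, stood at 7.29, 7.23, 7.22 and 7.27 in quiescent and at 7.34, 7.13, 7.20 and 7.20 in reverted arrays 1 to 4. Reverted array 1 was the highest and reverted array 2 the lowest of all 8. The log2 change was -0.04 (95% interval -0.15 to 0.08, limma adjusted p = 0.735), and its sign turned to 0.01 after quantile normalization. Its mean value lay at percentile 37.8 of all genes, in the dimmer part of the scale, where RMA can understate a difference.

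Bcl2l11 is a known target of the FOXO transcription factors, and the 250 bases before the first of its 2 listed starts (plus strand, chr2:128125788-128126037, GRCm38.p6) are shown with the same marking.
Bcl2l11: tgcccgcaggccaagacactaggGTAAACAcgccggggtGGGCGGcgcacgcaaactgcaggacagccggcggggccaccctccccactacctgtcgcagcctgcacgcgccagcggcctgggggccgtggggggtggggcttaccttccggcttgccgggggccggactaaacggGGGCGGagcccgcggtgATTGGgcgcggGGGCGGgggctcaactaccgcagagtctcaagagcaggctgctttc
This window held a FOXO site, a CCAAT box on the opposite strand and 3 GC boxes. A FOXO site occurred in 3.17% of all windows and in 2 of the 13 windows listed for the 8 genes. The p53 decamer and the TATA box occurred in 0 of the 13, against 7.13% and 12.4% of all windows. The FOXO genes themselves had log2 changes of -0.06 for Foxo1, 0.18 for Foxo3 and 0.03 for Foxo4 (limma unadjusted p = 0.525, 0.144 and 0.52). Control of Bcl2l11 by FOXO factors in these cells was not tested.

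Of all 8 BH3-only genes, 0 were called and the means of 6 were lower after reversion, at a median difference of -0.07. The smallest p belonged to Bmf, a BH3-only gene whose product is tethered to the cytoskeleton and released by loss of attachment. It stood at 9.99, 10.05, 10.36 and 10.13 in quiescent and at 9.85, 9.84, 9.56 and 9.30 in reverted arrays 1 to 4, so that the groups did not overlap. Reverted cells thus separated downward for Bmf, as they did for 4.09% of all genes. Its log2 change was -0.50 (SE 0.13, 95% interval -0.79 to -0.21), or 0.708-fold, and it missed the threshold (limma unadjusted p = 0.00347, adjusted p = 0.131). Pmaip1, the gene of NOXA, differed by -0.10 (95% interval -0.25 to 0.05, and -0.23 with the hepatocyte covariate or -0.04 without quiescent array 2) and Bid, which links the receptor route to mitochondria, by -0.04 (95% interval -0.16 to 0.08).

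**Figure D2:**
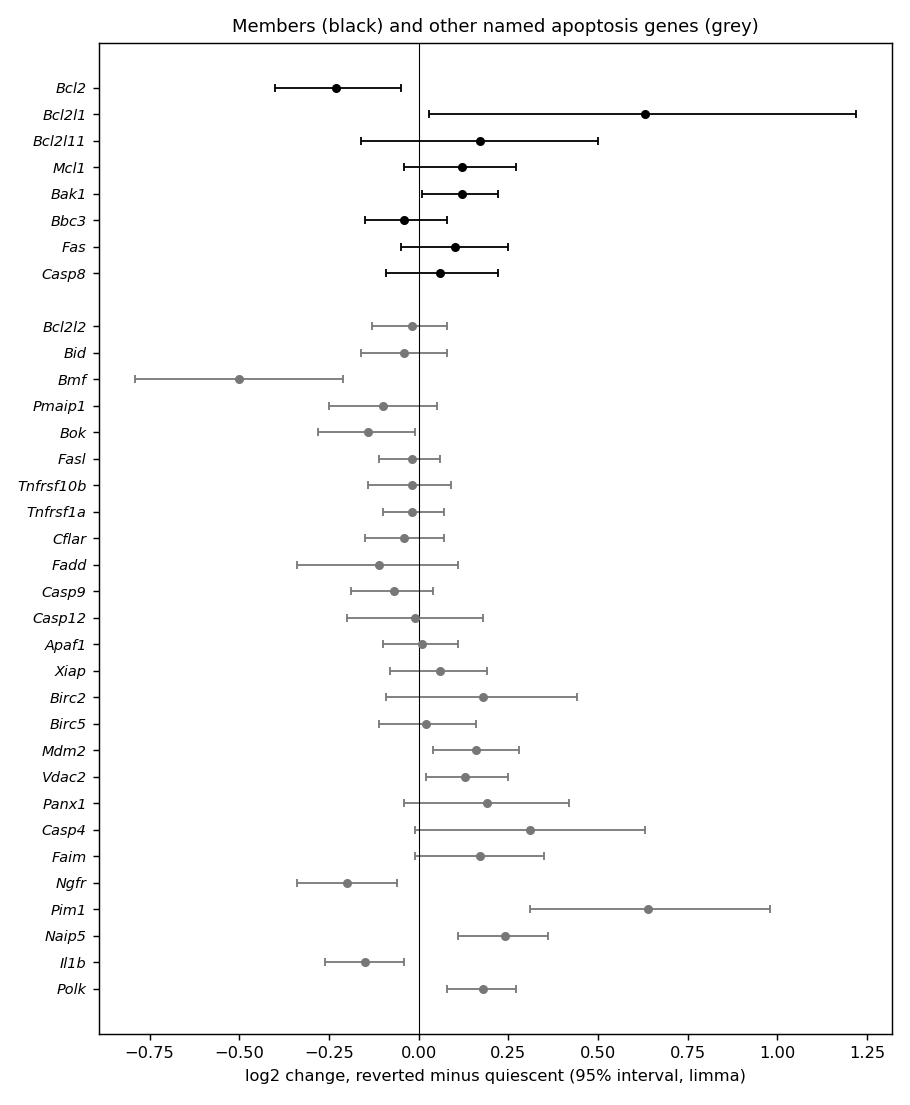
Log2 change, reverted minus quiescent (x axis), with its 95% interval from limma for the 8 genes (black) and 26 other named genes of cell death (grey). The interval of Bcl2l1 is the widest of the 8 (0.03 to 1.22), and those of Bmf (-0.79 to -0.21) and Pim1 (0.31 to 0.98) lie farthest from 0 among the grey ones.

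The death receptor gene Fas stood at 6.47, 6.35, 6.45 and 6.42 in quiescent and at 6.46, 6.43, 6.72 and 6.49 in reverted arrays 1 to 4. Reverted array 3 was higher than the rest, and the other 7 arrays lay between 6.35 and 6.49. The log2 change was 0.10 (95% interval -0.05 to 0.25, limma adjusted p = 0.463), and it was 0.04 without reverted array 3. Its mean lay at percentile 23.8 of all genes, so a difference in Fas may be understated. The ligand gene Fasl, expressed mainly by lymphocytes, differed by -0.02 (95% interval -0.11 to 0.06) and the TRAIL receptor gene Tnfrsf10b by -0.02 (95% interval -0.14 to 0.09). The means of Fasl and Tnfrsf10b lay lower still, at percentiles 16.1 and 20, so their differences may be understated too. The TNF receptor gene Tnfrsf1a also differed by -0.02 (95% interval -0.10 to 0.07).

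Casp8, the initiator caspase of the receptor route, stood at 11.90, 11.89, 11.77 and 11.81 in quiescent and at 11.74, 11.88, 11.90 and 12.08 in reverted arrays 1 to 4. The reverted arrays held both the lowest and the highest value. The means were 11.84 ± 0.06 and 11.90 ± 0.14 (SD, n = 4 each), a log2 change of 0.06 (95% interval -0.09 to 0.22, limma adjusted p = 0.672). Leaving out reverted array 4 gave a change of 0.00, and leaving out reverted array 1 gave 0.12. Around Casp8 in the same route, the adaptor gene Fadd differed by -0.11 (95% interval -0.34 to 0.11), and by -0.18 without quiescent array 2. The caspase-8 inhibitor gene Cflar, which encodes c-FLIP, differed by -0.04 (95% interval -0.15 to 0.07).

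The rest of the pathway was read from 12 lists, which include the 8 genes, with 106 of 118 entries measured. In limma 0 of these 106 genes were called, 13 were higher and 6 lower at an unadjusted p under 0.05, and the median log2 change was 0.02. The shares at that unadjusted p over all genes were 8.56% higher and 7.40% lower. Of the 11 measured death receptors and ligands, 2 had a higher and 9 a lower mean (median -0.03). The smallest p there was that of Ngfr, the neurotrophin receptor that also marks stellate cells, with a log2 change of -0.20 (95% interval -0.34 to -0.06, limma adjusted p = 0.176). The receptor adaptors had 4 higher and 5 lower means (median -0.04), and the smallest p was that of Faim, an inhibitor of Fas-driven death (0.17, 95% interval -0.01 to 0.35, and 0.30 with the hepatocyte covariate or 0.09 without quiescent array 2).

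Of the 8 measured caspases, 2 had a higher and 6 a lower mean, with a median of -0.02. Casp4, the caspase of non-canonical inflammasomes, had the widest difference at 0.31 (95% interval -0.01 to 0.63, limma adjusted p = 0.328), and at 0.55 with the hepatocyte covariate (adjusted p = 0.105). Casp9, the initiator of the mitochondrial route, differed by -0.07 (95% interval -0.19 to 0.04, and -0.13 after quantile normalization) and its activator Apaf1 by 0.01 (95% interval -0.10 to 0.11). Casp12 of the endoplasmic reticulum differed by -0.01 (95% interval -0.20 to 0.18). The 9 measured apoptosome and mitochondrial genes had a median of 0.05, and the channel gene Vdac2 had the smallest p (0.13, limma unadjusted p = 0.027).

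Inhibitor of apoptosis genes had a higher mean in 8 of 9 measured cases, against 46.4% of all genes. Their median log2 change was 0.06. Of the 9, 0 were called, against 0.712% of all genes. In limma 3 were higher at an unadjusted p under 0.05, against 8.56% of all genes. The means of this list did not overlap, at 8.77 to 8.86 in quiescent and 8.88 to 9.01 in reverted arrays. Naip5 had the smallest p, with a difference of 0.24 (95% interval 0.11 to 0.36, limma unadjusted p = 0.0018), but it has near-identical neighbouring copies whose signals a probe set may share. Xiap, the direct inhibitor of executioner caspases, differed by 0.06 (95% interval -0.08 to 0.19), and by 0.01 after quantile normalization. Birc2 differed by 0.18 (95% interval -0.09 to 0.44), by 0.40 with the hepatocyte covariate (limma adjusted p = 0.107) and by 0.11 without quiescent array 2 or without reverted array 4. Birc5, the gene of survivin, differed by 0.02 (95% interval -0.11 to 0.16). The execution list had 6 higher and 3 lower means (median 0.04), led by the channel gene Panx1 (0.19, 95% interval -0.04 to 0.42). In the necroptosis and pyroptosis list 5 were higher and 3 lower (median 0.03), and Il1b had the smallest p (-0.15, limma unadjusted p = 0.0156).

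**Figure D3:**
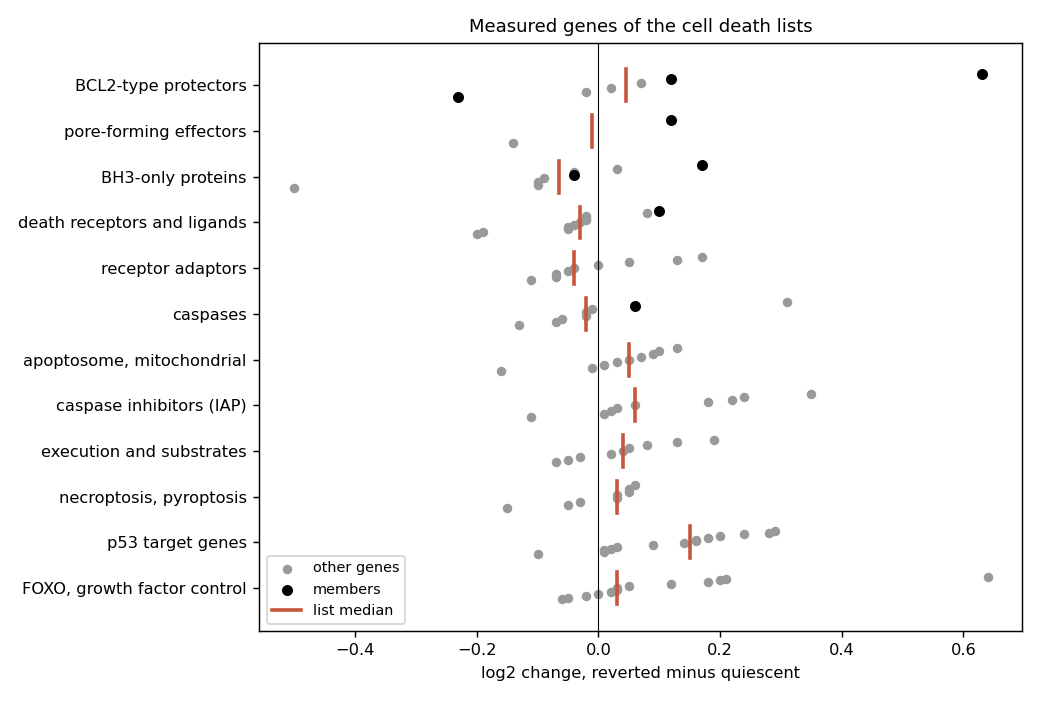
Log2 change, reverted minus quiescent (x axis), of every measured gene in the 12 cell death lists (rows), with the 8 genes in black, the other genes in grey and the list median as a red bar. List medians lie between -0.07 (BH3-only) and 0.15 (p53 targets), and the points farthest from 0 are Pim1 (0.64), Bcl2l1 (0.63) and Bmf (-0.50).

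The last lists hold p53 targets and genes of FOXO and growth factor control. Of the 14 measured p53 targets 13 had their higher mean after reversion, against 46.4% of all genes. Their median difference was 0.15, against -0.01 over all genes, and 0 were called. The means of this list overlapped, at 9.12 to 9.24 in quiescent and 9.23 to 9.33 in reverted arrays. At an unadjusted p under 0.05, 6 of the 14 were higher, against 8.56% of all genes, and 3 lay wholly above the quiescent arrays, against 4.64% of all genes. The smallest p was that of Polk, a translesion DNA polymerase gene, which stood at 9.20, 9.16, 9.16 and 9.28 in quiescent and at 9.34, 9.45, 9.36 and 9.36 in reverted arrays 1 to 4 (log2 change 0.18, limma adjusted p = 0.119, and 0.12 after quantile normalization). Mdm2, the p53 antagonist, differed by 0.16 (95% interval 0.04 to 0.28, limma adjusted p = 0.201), and by 0.11 after quantile normalization. Bbc3 and Fas, themselves known p53 targets and not in that list, differed by -0.04 and 0.10. Further known p53 targets held in other lists were Pmaip1 (-0.10), Tnfrsf10b (-0.02), Bid (-0.04) and Apaf1 (0.01). Trp53 and Cdkn1a were not analysed here.

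In the list of FOXO and growth factor control 9 genes had a higher and 4 a lower mean (median 0.03). Pim1, a survival kinase gene induced by cytokines through STAT factors, stood at 10.67, 10.82, 10.15 and 10.82 in quiescent and at 11.02, 11.30, 11.41 and 11.31 in reverted arrays 1 to 4. The groups did not overlap, as was so upward for 4.64% of all genes. The log2 change was 0.64 (SE 0.15, 95% interval 0.31 to 0.98, limma adjusted p = 0.102), and Pim1 passed the threshold with array weights (0.70, adjusted p = 0.0433). Of the 106 genes in the lists, 101 had an interval wholly within 1.5-fold, dim genes included, whose differences RMA can understate. The exceptions were Bcl2l1, Bmf, Casp4, Pim1 and Trp53inp1.

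**Figure D4:**
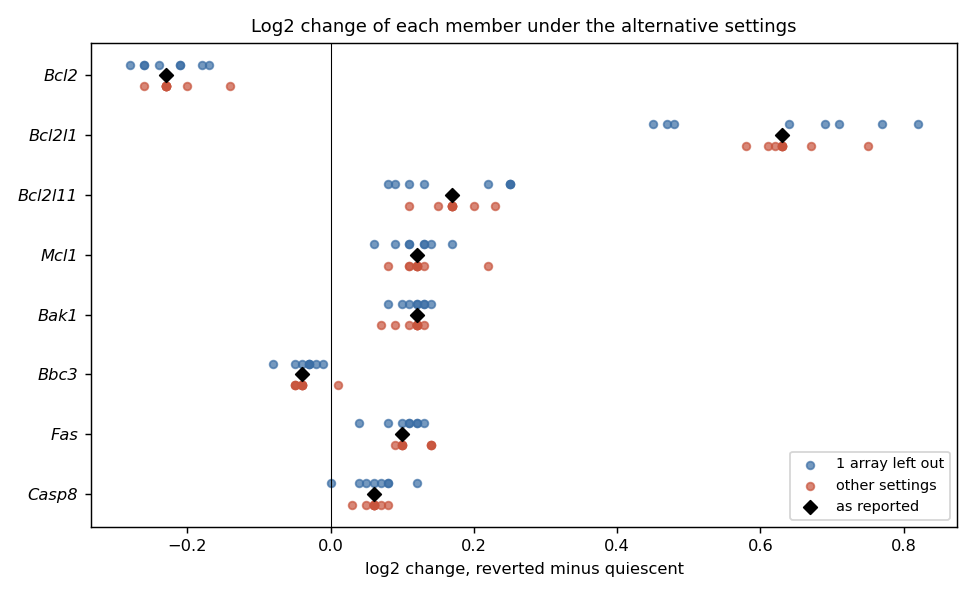
Log2 change, reverted minus quiescent (x axis), of each of the 8 genes as reported (black diamond), with each array left out in turn (blue) and under the other settings (red). Bcl2 stays below 0 (-0.28 to -0.14) and Bcl2l1 above 0 (0.45 to 0.82), while Bbc3 reaches 0.01 in 1 setting.

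The genes whose values followed Bcl2 most closely over the 8 arrays, among genes with an SD over the arrays of at least 0.2, were Cpne8 (Pearson r = 0.97), the transporter gene Abca8a (r = 0.90) and the clusterin gene Clu (r = 0.90). These correlations describe 8 arrays in 2 groups, and part of each reflects the group difference that the genes share. The log2 changes were -0.45 for Cpne8, -0.61 for Abca8a and -0.56 for Clu, against -0.23 for Bcl2. Abca8a (limma adjusted p = 0.0174) and Clu (adjusted p = 0.046) fell, and Cpne8 did not pass (adjusted p = 0.108). The same search was made for Bcl2l1 after its uneven values had been seen. It gave Errfi1, an inhibitor of the EGF receptor (r = 0.99), the ceramidase gene Acer2 (r = 0.98) and the adenylate kinase gene Ak4 (r = 0.98), again over 8 arrays. Ak4 stood at 7.55, 8.77, 7.48 and 8.80 in quiescent and at 8.65, 9.89, 8.84 and 8.68 in reverted arrays 1 to 4. Its low arrays were quiescent 1 and 3 and its highest was reverted 2, as for Bcl2l1, which follows from the selection of Ak4 by its r. The log2 changes were 0.26 for Errfi1, 0.42 for Acer2 and 0.86 for Ak4, and their limma adjusted p values lay between 0.309 and 0.332.

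**Figure D5:**
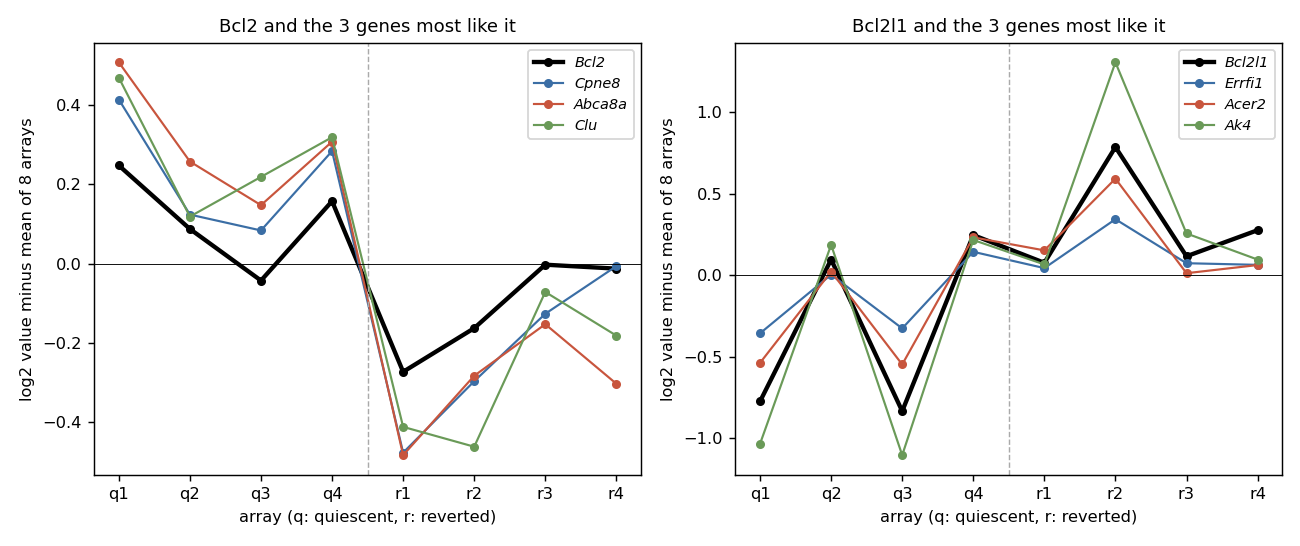
Log2 value minus the mean of the 8 arrays (y axis) per array (x axis, q quiescent and r reverted, lines only join the points of a gene) for Bcl2 (left) and Bcl2l1 (right), in black, with the 3 genes of highest Pearson r. Bcl2 overlaps between the groups at quiescent array 3 while its 3 companions do not overlap, and Bcl2l1 and its companions are low in quiescent arrays 1 and 3 and highest in reverted array 2. The companions were picked by r, so a shared pattern follows from the selection.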

How the data were processed

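Expression was measured on 8 Affymetrix whole-transcript arrays, 4 quiescent and 4 reverted. The deposited log2 values were made by the authors with RMA, per the submitters' processing notes; no RMA version, settings or genome build was given in the sources used here. RMA corrects background and normalizes across arrays, which compresses differences of dim probe sets. Depth has no counterpart on arrays, and their number limits the precision. Of 35556 probe sets, 21789 carried 1 gene symbol and were reduced to 19938 genes by the highest mean. Groups were compared with lmFit and eBayes in limma 3.58.1 (R 4.3.3), 2-sided, with Benjamini-Hochberg adjustment over all genes, a threshold of 0.05 and no level filter. The steps were tested on simulated data. Tables and plots used Python 3.11.15, pandas 2.3.3 and matplotlib 3.10.9.

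The genes and lists were chosen with earlier results of these data known. The text names the 8 genes, 20 listed pathway genes where measured, any called gene and the smallest p of each list. Alternatives were quantile normalization, median centring, level filters (25% and 50%), probe set means, array weights, an intensity trend with robust variance, hepatocyte and immediate early covariates, the replicate block and leaving out each array. Promoter sequences are RefSeq's. Replicate numbers gave no sign of pairing.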

Additional observations from a re-analysis of the deposited data

Results flagged for a closer look

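In each group of 4 arrays, the highest and lowest values of the 34 named genes were compared with Dixon's 95% critical value for 4 samples. Among 68 such sets, 2 had an outlying array, and chance marks about 1 in 20. Bak1 stood at 10.18 in quiescent array 1 and between 10.31 and 10.33 in the other quiescent arrays. Without quiescent array 1 its log2 change was 0.08 (limma adjusted p = 0.5), and the cause was not tested. Bcl2l2 stood at 9.37 in quiescent array 4 and between 9.22 and 9.24 in the other quiescent arrays.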

How the results depend on the processing

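In limma, 0 of the 8 genes were called in each of the 18 alternatives, with Bbc3 and Fas not tested under the stricter level filter and Fas not tested under the other. The lowest adjusted p of any of them was 0.125, for Bcl2l1 without quiescent array 4. Signs held for Bcl2, Bcl2l1, Bcl2l11, Mcl1, Bak1, Fas and Casp8 in the alternatives run, and Bbc3 turned once. The level filters, probe set means, intensity trend with robust variance and replicate block leave the log2 change of these genes as it was. A sign could thus turn only in the other settings. Over all genes, 142 were called as reported, 219 after quantile normalization, 306 with array weights and 74 with the hepatocyte covariate. With an array left out the count ran from 54 (reverted 4) to 247 (quiescent 4), with 59 without reverted 3 and 73 without quiescent 1. Among the cell death lists the count was 0, and 1 (Pim1) with array weights. The cause of these shifts was not tested. With the replicate block 63 genes and 0 of the 8 were called. Deviations of same-numbered arrays correlated between -0.15 and 0.08, and 0 of 8 arrays correlated best with their own number, so the numbers were not treated as pairs. Each gene had 1 probe set, so no other probe set could be tried. Signal over background was not used here, which limits what can be said of dim genes. Among them are Fas, Bbc3, Fasl, Tnfrsf10b, Naip5, Il1b, Birc5 and Pmaip1.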
